A study of Drosophila melanogaster with 4 samples.

Results

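Ab ChIP-seq peaks on chromosome arm 3R from 2 Mb to the tip were compared between *scrib1*+*ab* and *ab* mosaic eye/antennal discs. Members were chosen by position alone, as peaks of either deposited list whose midpoint lay on 3R at or beyond 2 Mb on the dm3 build. The rule found 2584 peaks in *scrib1*+*ab* discs and 1891 in *ab* discs, which is 4475 of the 19773 peaks in both lists. These were 23.7% of the 10892 *scrib1*+*ab* peaks and 21.3% of the 8881 *ab* peaks. The limit itself fell in a gap between peaks. Just inside it, the first *scrib1*+*ab* peak was 3R:2035909-2036041 and the first *ab* peak 3R:2035922-2036029. Just outside it, the last *scrib1*+*ab* peak was 3R:1996445-1996822 and the last *ab* peak 3R:1996458-1996813.

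Abrupt (Ab) is a BTB-zinc finger transcription factor that binds DNA and regulates cell fate. Scribbled (Scrib) is a scaffold protein of the lateral membrane that maintains apico-basal polarity and acts as a neoplastic tumour suppressor in flies, and its gene lies on 3R. The eye/antennal disc is the larval epithelium that gives rise to the adult eye, antenna and head cuticle. ChIP-seq enriches the DNA fragments crosslinked to a protein, and a peak is a stretch where the enriched reads exceed the input beyond the threshold of the peak caller.

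The *scrib1*+*ab* sample is labelled with the strain FRT82B,scrib1 and came from discs in which *ab* was overexpressed inside *scrib* mutant clones. The *ab* sample is labelled UAS-ab55 and came from discs that overexpressed *ab* without the *scrib* mutation, so both genotypes carried excess Ab. Each genotype gave 1 ChIP library, made from several pooled immunoprecipitations with a polyclonal rabbit antibody against Ab, and 1 input library, and the 2 input libraries entered only through the peak calling. By the methods, clones were made by MARCM with FRT82B, a recombination site on 3R near the centromere, with flippase under an *eyeless* promoter and GAL4 under a *tubulin* promoter. MARCM is a mosaic technique in which mitotic recombination beyond the FRT site makes clones homozygous for the rest of that arm and switches on GAL4. The discs were therefore mixtures of clone and non-clone cells from larvae of about day 5, and many discs were pooled per library. The share of clone cells in each library is not in the lists, so more bound cells and more binding per cell cannot be told apart.

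With 1 library per genotype there was no replicate check and no test between genotypes, and every interval covers counting error only. Each peak is listed by position and length, with a score of 1 throughout, and height and enrichment were not analysed here. The paper gives nearly equal total read numbers for the ChIP libraries of both genotypes, slightly lower for *scrib1*+*ab*. The read depth behind a peak was not analysed either, and its part in the differences was not tested. A longer reach of enrichment and a lower calling cut-off relative to depth cannot be told apart in a list of intervals.

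On 3R, *scrib1*+*ab* discs had 693 more Ab peaks than *ab* discs, a ratio of 1.37 (exact 95% interval 1.29 to 1.45). This corresponds to 99.9 peaks per Mb in *scrib1*+*ab* discs and 73.1 in *ab* discs. The excess was larger than on the rest of the genome. The arms 2L, 2R, 3L and X together held 8147 *scrib1*+*ab* peaks and 6869 *ab* peaks, a ratio of 1.19 (1.15 to 1.22). Arm by arm, the ratio was 1.25 (1.17 to 1.34) on 2L, 1.18 (1.11 to 1.26) on 2R, 1.18 (1.11 to 1.26) on 3L and 1.14 (1.07 to 1.22) on X. The counting interval of 3R overlapped that of 2L and lay above those of 2R, 3L and X. These intervals take peaks as independent counts and are too narrow where peaks cluster. On 3R, 61.6% of *scrib1*+*ab* and 57.5% of *ab* peaks lay within 500 bp of another peak of the same list. At the ratio of the other 4 arms, 3R would have listed 2243 *scrib1*+*ab* peaks, and 341 more than that were listed. The 3R ratio was 1.15 times that of the other arms with every peak kept and 1.05 times with peaks under 40 bp left out.

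The excess was spread along the arm rather than placed in one stretch. In 1-Mb bins, the number of *scrib1*+*ab* peaks ran between 58 and 169 (median 96.5) and that of *ab* peaks between 37 and 127 (median 69.5). *scrib1*+*ab* peaks were more numerous in 25 of 26 bins and *ab* peaks in 1. On 2L, 2R, 3L and X together, the median ratio per bin was 1.17 (0.846 to 1.90). More *scrib1*+*ab* peaks in most bins was therefore not particular to 3R. On 3R, the counting interval of the ratio lay above 1 in 14 bins, and it held the ratio of the whole arm in 25. Bins rich in one list were rich in the other (Spearman's rho 0.857 over 26 bins, which share the 2 libraries and their input).

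**Figure D1:**
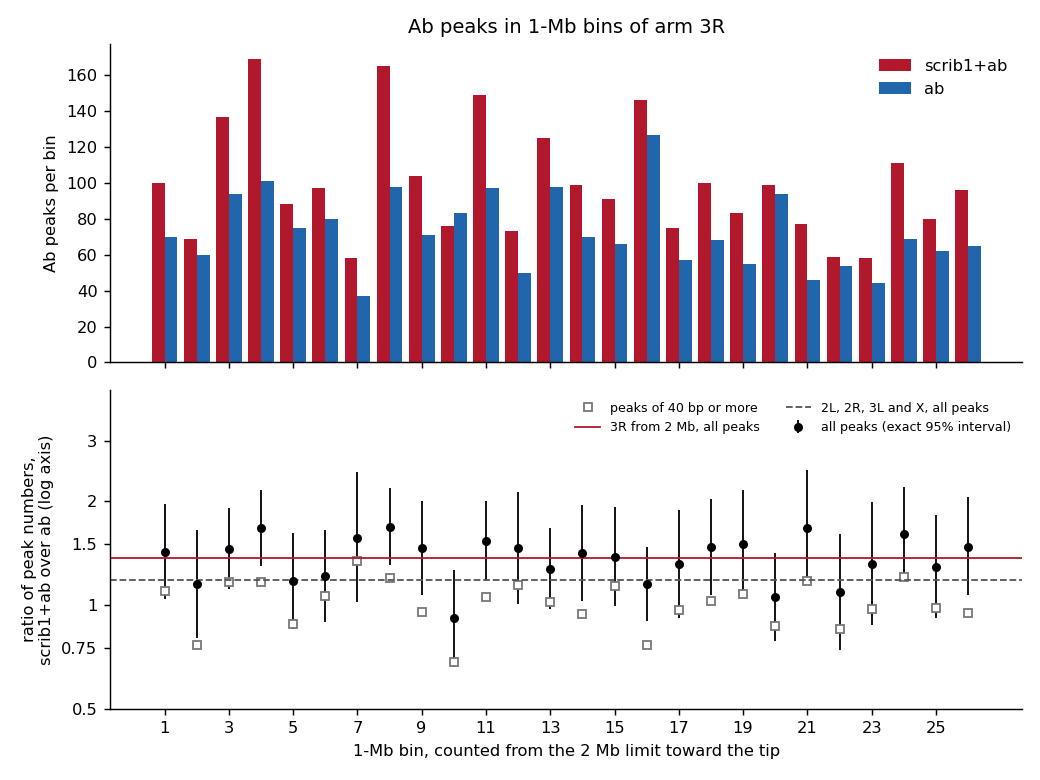
Upper panel, the number of Ab peaks per 1-Mb bin of 3R in *scrib1*+*ab* (red) and *ab* (blue) discs, from the 2 Mb limit at the left to the tip at the right. Lower panel, the ratio of these numbers on a log axis with exact 95% intervals for counting error (black), the same for peaks of 40 bp or more (open squares), and the ratios of 1.37 for 3R (red line) and 1.19 for the other arms (dashed line); the black points show no slope toward the tip and the open squares lie around 1.

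The 5 bins with the highest ratios were scattered over the arm. Between 9 and 10 Mb there were 165 *scrib1*+*ab* peaks and 98 *ab* peaks, a ratio of 1.68 (1.30 to 2.18), and between 5 and 6 Mb there were 169 and 101, a ratio of 1.67 (1.30 to 2.16). The bin from 22 to 23 Mb held 77 *scrib1*+*ab* peaks and 46 *ab* peaks (1.67, interval 1.15 to 2.47), that from 25 to 26 Mb held 111 and 69 (1.61), and that from 8 to 9 Mb held 58 and 37 (1.57). A pair of these bins lies in the distal part of the arm and the rest in the proximal part. The bin from 11 to 12 Mb was the single one with fewer *scrib1*+*ab* peaks, 76 against 83 in *ab* discs (0.916, interval 0.662 to 1.27). The next lowest ratios were 1.05 between 21 and 22 Mb (99 *scrib1*+*ab* and 94 *ab* peaks), 1.09 between 23 and 24 Mb (59 and 54), 1.15 between 17 and 18 Mb (146 and 127) and 1.15 between 3 and 4 Mb (69 and 60). High and low bins sat side by side beyond 21 Mb.

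A ratio of 1.5 or more was found in 7 of 26 bins on 3R, against 14.2% of the 113 bins of all arms that held at least 20 *ab* peaks. The other arms had 9 such bins of 87, with 4 of 22 on 2L, 4 of 20 on 2R, none of 23 on 3L and 1 of 22 on X. The median ratio per bin was 1.42 on 3R (0.916 to 1.68), and it was 1.28 on 2L, 1.13 on 2R, 1.15 on 3L and 1.13 on X. The highest bins of 3R were no higher than those of the other arms, where single bins reached 1.90. The centre of the distribution was what stood higher on 3R. For peaks of 40 bp or more, the median ratio per bin on 3R was 1.03 (0.683 to 1.34) and no bin reached 1.5.

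**Figure D2:**
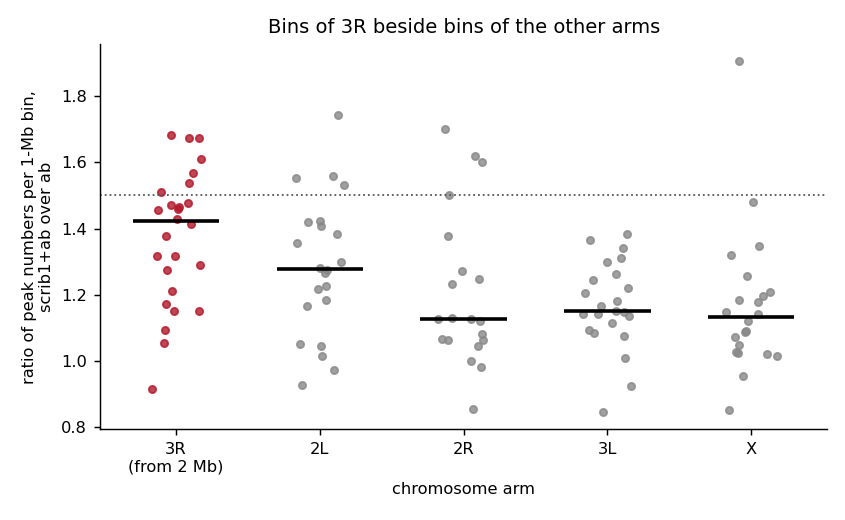
Ratio of the number of *scrib1*+*ab* to *ab* peaks in each 1-Mb bin, by chromosome arm, with 1 point per bin, a black line at the median of the arm and a dotted line at 1.5. The 26 bins of 3R (red) have a median of 1.42 and 7 of them lie at or above the dotted line, beside medians of 1.28 on 2L, 1.13 on 2R, 1.15 on 3L and 1.13 on X (grey).

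No rise of the excess toward the tip was seen. Spearman's rho between the ratio and the position of the bin was 0.0038 over 26 bins (-0.072 to 0.079 with any 1 bin left out), and Pearson's r was -0.018. The excess in number had a rho of -0.13. Numbers of peaks were lower toward the tip in both lists, with a rho of -0.25 for *scrib1*+*ab* and -0.39 for *ab* peaks. The arm split at 15 Mb gave 1410 *scrib1*+*ab* and 1014 *ab* peaks on the proximal side, a ratio of 1.39 (1.28 to 1.51), and 1174 and 877 on the distal side, a ratio of 1.34 (1.23 to 1.46). On the other arms the rho of the ratio toward the tip was -0.35 on 2L, 0.032 on 2R, -0.16 on 3L and 0.29 on X.

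*scrib* does not lie at the tip itself. In the RefSeq gene order it falls between *Tl*, which encodes the Toll receptor, on the distal side and *CG12250* (*ymp*) on the proximal side, among the genes placed here, and 600 of 3396 protein-coding genes of 3R (17.7%) lie beyond it. Both have probe alignments on dm3, which put *scrib* somewhere between 21.43 and 22.62 Mb. This interval also holds genes of the Enhancer of split complex, which are Notch targets. It held 96 *scrib1*+*ab* and 78 *ab* peaks, a ratio of 1.23 (0.903 to 1.68) whose interval holds that of the whole arm. The longest *ab* peak of 3R, described later, lies in this interval. A narrower place for *scrib* was not analysed here, so a local effect within a single bin was not tested.

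*scrib1*+*ab* peaks were much shorter than *ab* peaks on 3R. The median peak covered 65 bp in *scrib1*+*ab* discs (95% interval 62 to 67, interquartile range 39 to 111) and 157 bp in *ab* discs (151 to 165, interquartile range 96 to 254.5). The ratio of the medians was 0.414 on 3R, with 71 bp in *scrib1*+*ab* and 149 bp in *ab* discs on the other arms, a ratio of 0.477. *scrib1*+*ab* peaks had the lower median length in all 26 bins of 3R. Although more numerous, they covered less of the arm, 239027 bp against 375575 bp for *ab* peaks.

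Peaks under 40 bp were far more numerous in *scrib1*+*ab* discs. By the methods, the peak caller was set to a read length of 40, so these intervals are shorter than that setting. The length of the sequenced reads was not analysed here. *scrib1*+*ab* discs had 721 of them on 3R, which is 27.9% (26.2 to 29.7) of their 3R peaks beside 23.3% over all arms. *ab* discs had 41, which is 2.17% (1.56 to 2.93) beside 2.65% over all arms. On the other 4 arms the shares were 21.7% in *scrib1*+*ab* and 2.81% in *ab* discs. The 680 additional peaks under 40 bp stand beside a total excess of 693, but they are not the only class in excess. From 40 to under 100 bp *scrib1*+*ab* discs had 637 more peaks, and at 100 bp or more the difference was -624, so that these classes nearly cancelled. On the other arms together the additional peaks under 40 bp numbered 1575 beside a total excess of 1278. Among peaks of 40 bp or more, 1863 were from *scrib1*+*ab* and 1850 from *ab* discs, a ratio of 1.01 (0.944 to 1.07), against 0.956 (0.923 to 0.989) on the other arms. With these lengths kept, 14 bins had more *scrib1*+*ab* and 12 had more *ab* peaks, while short *scrib1*+*ab* peaks outnumbered short *ab* peaks in all 26.

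The whole distribution of lengths was shifted, on 3R as on the other arms together. The other arms held 3730 *scrib1*+*ab* and 1860 *ab* peaks from 40 to under 100 bp, and 56 and 333 of 500 bp or more. On 3R there were 1099 *scrib1*+*ab* and 462 *ab* peaks from 40 bp to under 100 bp, and from 100 bp upwards the order was turned round. There were 525 *scrib1*+*ab* and 682 *ab* peaks from 100 to under 200 bp, 161 and 354 from 200 to under 300 bp, 67 and 265 from 300 to under 500 bp, and 11 and 87 of 500 bp or more. Long peaks were also the ones found in both genotypes. The 67 and 11 *scrib1*+*ab* peaks of the longest classes all overlapped an *ab* peak, whereas 26.5% of those under 40 bp did. Of the *ab* peaks, 96.6% of those of 500 bp or more overlapped a *scrib1*+*ab* peak, and 35.7% of those from 40 to under 100 bp did.

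**Figure D3:**
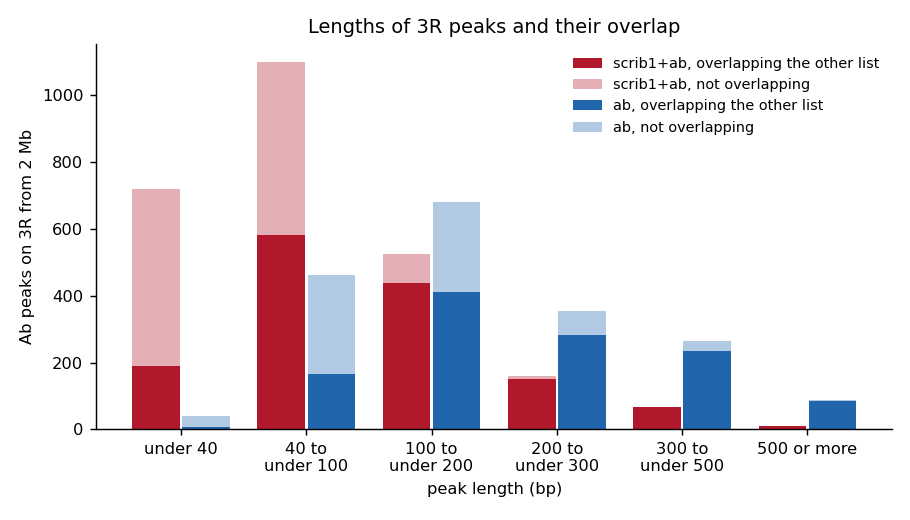
Number of 3R peaks by length in bp for *scrib1*+*ab* (red, left bar of each pair) and *ab* (blue, right bar), with the dark part overlapping a peak of the other list and the pale part not. *scrib1*+*ab* peaks are in excess below 100 bp (721 against 41 under 40 bp) and *ab* peaks above it, and the pale part is largest among the shortest *scrib1*+*ab* peaks.

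The length of *scrib1*+*ab* peaks followed position along the arm more closely than the ratio of numbers did. Its median per bin ran between 53 and 85 bp and had a rho of -0.48 with position over 26 bins (-0.55 to -0.42 with any 1 bin left out), so peaks were shorter toward the tip. For *ab* peaks the rho was -0.18. The rho of *scrib1*+*ab* length toward the tip was -0.33 on 2L and -0.31 on 3L, and it was -0.025 on 2R and -0.0062 on X. 3R was therefore not the only arm where these peaks were shorter toward the tip. In bins of 500 kb the rho on 3R was -0.28. The share of *scrib1*+*ab* peaks under 40 bp did not follow position (rho 0.0017).

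Most Ab peaks of 3R were found in both genotypes. A peak was counted as shared where it had at least 1 bp in common with a peak of the other list. By this measure 1442 *scrib1*+*ab* peaks were shared, 55.8% (53.9 to 57.7) beside 58.2% over all arms, and 1182 *ab* peaks, 62.5% (60.3 to 64.7) beside 59.1% over all arms. Where both peaks had to overlap over at least 50% of their lengths, the shares were 20.4% of *scrib1*+*ab* and 27.8% of *ab* peaks. On the other arms the 2 shares were alike, 59.0% (58.0 to 60.1) of *scrib1*+*ab* and 58.2% (57.0 to 59.3) of *ab* peaks, while on 3R the *ab* share was the higher one in 20 of 26 bins. This order was turned round with peaks of 40 bp or more, where 67.0% of *scrib1*+*ab* and 57.2% of *ab* peaks were shared, and with the longest peaks of each list in equal numbers, where 64.9% and 57.5% were.

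The ratio on 3R stood further from that of the other arms for unshared than for shared peaks. There were 1142 unshared *scrib1*+*ab* and 709 unshared *ab* peaks on 3R, a ratio of 1.61 (1.47 to 1.77). On the other arms together these were 3338 and 2873, a ratio of 1.16 (1.10 to 1.22), and the highest single arm was 2L with 1.31 (1.18 to 1.45). The ratio of shared peaks was 1.22 (1.13 to 1.32) on 3R and 1.20 (1.15 to 1.26) on the other arms. Shared numbers can differ between the lists only where a peak of either list overlaps several of the other. The shared ratio of single arms ran only from 1.17 on X to 1.22 on 3L. A larger excess on an arm therefore falls mostly among unshared peaks. The contrast thus largely restates the ratios of all peaks, 1.37 on 3R and 1.19 on the other arms, and is not a separate result. Unshared peaks made up 433 of the excess of 693 on 3R (62.5%) and 465 of the excess of 1278 elsewhere (36.4%). Along 3R, the unshared ratio had a median of 1.69 per bin (0.683 to 2.76) and was above 1 in 23 bins, and the shared ratio had a median of 1.21 (1.09 to 1.42) and was above 1 in all 26. Neither followed the position closely, with a rho of -0.099 for unshared and 0.25 for shared peaks.

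**Figure D4:**
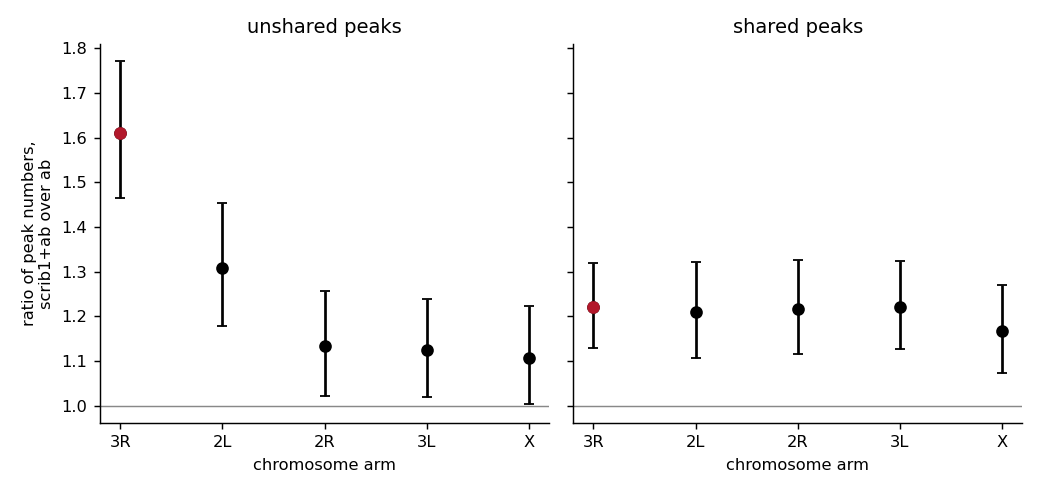
Ratio of the number of *scrib1*+*ab* to *ab* peaks by chromosome arm, for peaks without (left) and with (right) an overlapping peak in the other list, with exact 95% intervals for counting error and a grey line at 1. 3R (red) stands at 1.61 for unshared peaks, above the 1.31 of 2L and the other arms (black), and at 1.22 for shared peaks, among the other arms.

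The unshared excess lay in peaks under 100 bp. From 40 to under 100 bp there were 517 unshared *scrib1*+*ab* and 297 unshared *ab* peaks, and at 100 bp or more 95 and 378. Of all unshared peaks of 40 bp or more, 612 were from *scrib1*+*ab* and 675 from *ab* discs, a ratio of 0.907 (0.811 to 1.01), with 0.777 (0.734 to 0.823) on the other arms and 0.900 on 2L. Unshared peaks often lay close to a peak of the other genotype. Gaps within a list were taken over all peaks, shared ones included, so they cannot be ranked against the gaps of unshared peaks. Over all 3R peaks, the median gap within the same list was 273 bp for *scrib1*+*ab* and 351 bp for *ab* peaks. Of these peaks, 61.6% and 57.5% lay within 500 bp of the next. The median gap of an unshared *scrib1*+*ab* peak to the nearest *ab* peak was 799 bp, and 41.7% lay within 500 bp of one while 26.1% lay more than 5 kb away. For unshared *ab* peaks the median gap to the nearest *scrib1*+*ab* peak was 544 bp, with 48.5% within 500 bp and 18.1% beyond 5 kb. On the other arms these gaps were 893.5 bp for *scrib1*+*ab* and 778 bp for *ab* peaks.

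The order of each deposited list carried further information. Peaks were not sorted by coordinate, and within 3R the place in the list went with length (rho -0.899 over the *scrib1*+*ab* peaks and -0.842 over the *ab* peaks), so long peaks came first. With each 3R list cut into 10 equal parts, 98.8% of *scrib1*+*ab* and 99.5% of *ab* peaks were shared in the first, and 27.9% and 25.4% in the last. The first 1891 *scrib1*+*ab* peaks, as many as the *ab* list has, had a median length of 84 bp, 65.7% of them were shared and 9.47% were under 40 bp. The remaining 693 had a median length of 36 bp, 28.9% were shared and 78.2% were under 40 bp. Split in the same way, the remaining *scrib1*+*ab* peaks were 29.5% shared on 2L, 31.9% on 2R, 29.7% on 3L and 27.5% on X. Their median lengths there were 38, 37, 36 and 36 bp, so this pattern was not particular to 3R. What the authors ranked the lists by was not tested.

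**Figure D5:**
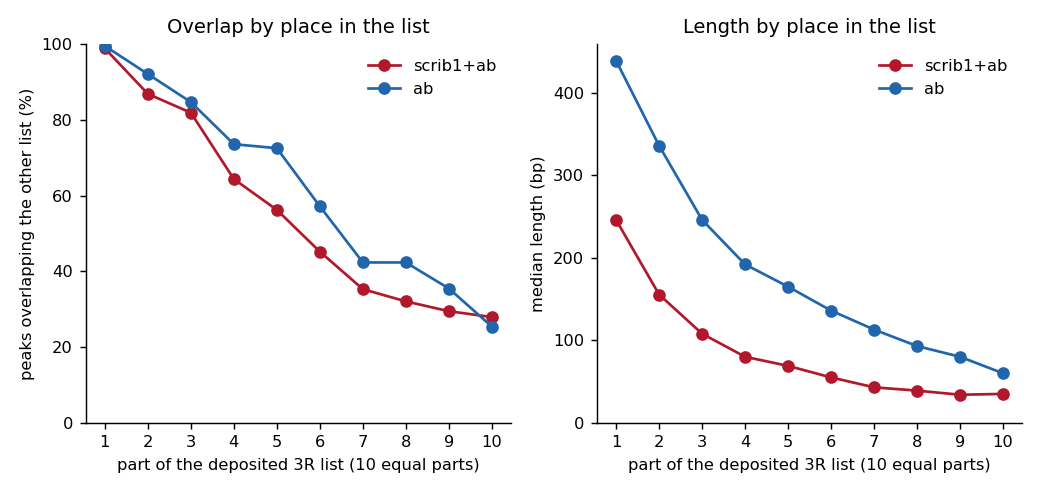
Share of 3R peaks that overlap the other list in percent (left) and median peak length in bp (right) for 10 equal parts of the deposited 3R list of *scrib1*+*ab* (red) and *ab* (blue) discs, from its start (1) to its end (10). Both curves fall along both lists, to 27.9% shared for *scrib1*+*ab* and 25.4% for *ab* peaks in part 10, and *ab* peaks are longer in every part.

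Where both genotypes had a peak, that of *ab* discs was usually the longer. Among 1165 mutually best overlapping pairs on 3R, the *ab* peak was longer in 974 (83.6%), the *scrib1*+*ab* peak in 185, and 6 were equal. The *ab* peak was the longer in 82.4% of pairs on the other arms. The median length ratio within pairs was 0.565, against 0.586 on the other arms. The *scrib1*+*ab* peak lay wholly inside the *ab* peak in 641 pairs on 3R (55.0%, the same percentage as on the other arms), and the midpoints were a median of 35 bp apart. Lengths within pairs went together loosely, with a Spearman's rho of 0.476 over the pairs, which are not replicates.

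Long *ab* peaks were also matched by several short *scrib1*+*ab* peaks. On 3R, 237 *ab* peaks (12.5%) overlapped 2 or more *scrib1*+*ab* peaks, 521 of them in all, and 945 overlapped 1. Elsewhere in the genome 10.6% of *ab* peaks did so (2L, 2R, 3L and X together). Only 24 *scrib1*+*ab* peaks overlapped 2 or more *ab* peaks. The 260 additional shared *scrib1*+*ab* peaks of 3R came from such multiple overlaps, not from further *ab* peaks being matched. The longest *ab* peak of the arm, 3R:22359815-22361043 (1229 bp), overlapped 5 *scrib1*+*ab* peaks of 61 to 202 bp that covered 565 bp together. The *ab* peak 3R:25081601-25082674 (1074 bp) overlapped 4 of 170 to 251 bp, and 3R:10480232-10480989 (758 bp) overlapped 4 of 44 to 253 bp. Joining peaks of the same list that lie within 500 bp of each other left a ratio of 1.25 between the genotypes on 3R.

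The longest 5 peaks of each list coincided in part. The longest in *scrib1*+*ab* discs was 3R:12060655-12061737 (1083 bp), which matched the *ab* peak 3R:12060700-12061761 (1062 bp). The next was 3R:13526414-13527275 (862 bp), which matched an *ab* peak of 866 bp at 3R:13526430-13527295. These pairs of nearly equal length were exceptions to the general shortening. More often the *ab* peak was far longer, as with the *scrib1*+*ab* peak 3R:21831864-21832412 (549 bp) inside the *ab* peak 3R:21831523-21832547 (1025 bp). The pair at 3R:14070133-14070663 had 531 bp in *scrib1*+*ab* and 935 bp in *ab* discs, and the pair at 3R:12075623-12076215 had 593 and 879 bp. The longest 5 of *scrib1*+*ab* discs were completed by 3R:26097951-26098774 (824 bp), 3R:4752874-4753590 (717 bp) and 3R:21834120-21834766 (647 bp). Among *ab* peaks the second longest was 3R:21827913-21829003 (1091 bp), so the peaks named here included several within a few kb of each other. All of the longest 5 in each list were shared.

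Peaks found in a single genotype were shorter. The longest unshared *scrib1*+*ab* peak was 3R:25599793-25600085 (293 bp), 270 bp from the nearest *ab* peak, followed by 3R:16137012-16137267 (256 bp, 1515 bp away) and 3R:19765733-19765973 (241 bp, 803 bp away). The next were 3R:13508252-13508483 (232 bp) and 3R:5699907-5700131 (225 bp). The longest unshared *ab* peaks lay side by side, 3R:23027532-23028131 (600 bp) and 3R:23026777-23027319 (543 bp), 1666 and 1778 bp from the nearest *scrib1*+*ab* peak. They were followed by 3R:15107540-15108039 (500 bp), 3R:7198161-7198643 (483 bp) and 3R:19321796-19322235 (440 bp), of which the last was 4778 bp from the nearest *scrib1*+*ab* peak.

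At finer scale, the excess came from many windows. Of 259 windows of 100 kb, 170 held more *scrib1*+*ab* peaks, 47 held more *ab* peaks and 42 held equal numbers. Of the windows with equal numbers, 14 held no peak in either list. The medians were 7 *scrib1*+*ab* and 5 *ab* peaks. Windows of this size were not counted on the other arms, so whether these shares are particular to this arm was not tested. The largest excess was between 9.8 and 9.9 Mb, with 46 *scrib1*+*ab* and 20 *ab* peaks, of which 21 and 0 were under 40 bp and 30 and 5 were unshared. The adjoining window from 9.7 to 9.8 Mb held 40 *scrib1*+*ab* and 23 *ab* peaks. The windows at 13.9 to 14 Mb (24 and 7), 4 to 4.1 Mb (26 and 11) and 14.2 to 14.3 Mb (30 and 17) followed, and the 5 together had an excess of 88, beside 693 on the whole arm. The window from 22.7 to 22.8 Mb (25 and 12) had the same difference as the last of them. Windows with more *ab* peaks differed by less. The largest of these were 3.7 to 3.8 Mb with 5 *scrib1*+*ab* and 11 *ab* peaks, 11.4 to 11.5 Mb with 10 and 15, and 13.6 to 13.7 Mb with 2 and 7, and 4 windows tied after them, 21.4 to 21.5 Mb with 17 and 21, 11.9 to 12 Mb with 7 and 11, and 4.1 to 4.2 Mb and 14.8 to 14.9 Mb with 6 and 10 each.

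Genes were placed on dm3 by the probe alignments in the study's supplementary material, where all probes of a gene fell on one arm within 150 kb. This gave 45 genes of 3R, all chosen by the study for their expression in these discs, so they are no sample of the arm. Their spans held 152 *scrib1*+*ab* and 111 *ab* peaks in all, a ratio of 1.37 (1.07 to 1.77), of which 43 and 4 were under 40 bp. More *scrib1*+*ab* peaks were found in 12 of the 45 genes, beside 31.7% of 167 genes so placed on any arm. *ab* peaks were more numerous in 8, and 25 had equal numbers, of which 19 had none in either list. Peaks were concentrated in a few genes.

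*pyd*, which encodes the fly homologue of the junction protein ZO-1, held 33 *scrib1*+*ab* and 20 *ab* peaks in the stretch covered by its probes. They included one of the 5 longest *scrib1*+*ab* peaks of the arm, the 717 bp peak named above, matched in *ab* discs by 3R:4752918-4753586 (669 bp). *fru*, which encodes BTB-zinc finger proteins of the sex determination pathway, held 30 *scrib1*+*ab* and 20 *ab* peaks. Its longest were 3R:14273785-14274138 (354 bp) in *scrib1*+*ab* discs and 3R:14299895-14300405 (511 bp) in *ab* discs. *CG33967* (*kibra*), an upstream regulator of the Hippo growth-control pathway, held 14 *scrib1*+*ab* and 7 *ab* peaks. Its longest were 3R:10541967-10542207 (241 bp) in *scrib1*+*ab* discs and 3R:10541895-10542402 (508 bp) in *ab* discs, so *kibra* had more but shorter peaks in *scrib1*+*ab* discs.

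*ps*, which encodes an RNA-binding regulator of splicing, held 12 *scrib1*+*ab* and 4 *ab* peaks, and its longest were 333 bp in *scrib1*+*ab* and 531 bp in *ab* discs. *CG34360* (*Glut4EF*) held 17 *scrib1*+*ab* and 14 *ab* peaks, and *Tl* held 7 and 5. *cpo*, which encodes an RNA-binding protein, held 6 *scrib1*+*ab* and 1 *ab* peak, of which the longest was 55 bp in *scrib1*+*ab* and 327 bp in *ab* discs. *svp*, which encodes an orphan nuclear receptor that acts in photoreceptor fate, held 3 *scrib1*+*ab* peaks of at most 82 bp and no *ab* peak. The remaining genes with more *scrib1*+*ab* peaks were *Hrb98DE* (2 and 1) and *CG4662*, *CG6982* and *Trc8* (1 and 0 each).

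The order was turned round in *Alh*, with 5 *scrib1*+*ab* and 7 *ab* peaks, of which the longest was 174 bp in *scrib1*+*ab* and 776 bp in *ab* discs. *dsx*, a transcription factor gene of sex determination, held 3 *scrib1*+*ab* and 6 *ab* peaks, and *tmod*, which encodes an actin-capping protein, held 1 and 3. *CG12250* held 1 *scrib1*+*ab* and 3 *ab* peaks and *CG5326* 0 and 2. *RpL3*, a gene of the large ribosomal subunit, *B52*, which encodes a splicing factor, and *spas*, which encodes a microtubule-severing protein, each held 0 in *scrib1*+*ab* and 1 in *ab* discs. *CG42342* held 6 of each and *btsz*, which encodes a synaptotagmin-like protein, 3 of each. None of these differences was tested.

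Other genes were bracketed by their neighbours in the RefSeq order, which gives a stretch and not the gene itself. The homeotic genes *Ubx*, *abd-A* and *Abd-B*, which set segment identity, fall together between 12.40 and 12.90 Mb, where 49 *scrib1*+*ab* and 28 *ab* peaks were listed (1.75, interval 1.08 to 2.89). With peaks of 40 bp or more these were 29 and 26. The stretch of *hth*, which encodes a homeodomain cofactor kept on in progenitor cells of the eye disc, held 74 *scrib1*+*ab* and 60 *ab* peaks over 6.04 to 6.59 Mb (1.23, interval 0.866 to 1.76). *dan* and *danr*, which act in the retinal determination network, lie in a stretch with 37 *scrib1*+*ab* and 34 *ab* peaks. *Ser*, which encodes a Notch ligand, lies in one with 107 and 89 (1.20, interval 0.899 to 1.61). *pnr* and *ss* share a stretch with 163 *scrib1*+*ab* and 141 *ab* peaks over 10.68 to 12.28 Mb (1.16, interval 0.917 to 1.46). That of *E(var)3-9* held 97 and 75 (1.29, interval 0.947 to 1.77). *wts*, the Hippo pathway kinase gene, lies in a stretch with 19 *scrib1*+*ab* and 10 *ab* peaks over 26.40 to 26.65 Mb (1.90, interval 0.841 to 4.57). Among peaks of 40 bp or more, the stretch of *hth* held fewer *scrib1*+*ab* than *ab* peaks (54 and 59). The same held for *dan* and *danr* (27 and 32), *Ser* (74 and 88) and *pnr* and *ss* (123 and 140). The stretch of *E(var)3-9* then held 71 of each, and that of *wts* 16 and 10.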

How the data were processed

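Per the labels, Ab ChIP and matched input DNA came from eye/antennal discs, with 1 library of each per genotype. The submitters' processing notes name Bowtie and dm3. The authors called peaks of each genotype against its own input with PeakSeq, and the track headers carry a threshold of 0.0001. The deposited lists give start, end and a score, which is 1 in every row, for the arms in separate blocks. They hold no reads, so depth was not analysed here, and no columns were left out as belonging to no sample (0).

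Peaks were read 1-based and placed by midpoint. Ratios of peak numbers carry exact binomial (Clopper-Pearson) 95% intervals for counting error; medians carry order-statistic intervals. Overlap counting was tested on simulated intervals. Named regions were the 5 extremes of each kind (bins of 1 Mb, windows of 100 kb, longest, longest unshared, longest pairs) and the peaks beside the 2 Mb limit; named genes were those of the study's probe alignments with at least 95% identity and spans up to 150 kb, and a list of 3R genes bracketed between them by order in RefSeq (Release 6, names and order only). Probe positions were read from extracted text; 44 of 45 genes matched RefSeq, all 44 in the same order. Members and lists were chosen with earlier results of these data known. Alternatives were joined peaks (500 bp), a minimum length of 40 bp, equal list sizes, other overlaps and other bins. Python 3.11.15, NumPy 2.4.6, SciPy 1.17.1, pandas 2.3.3 and Matplotlib 3.10.9 were used. Sequences were not printed, since a dm3 genome was not used here.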

Additional observations from a re-analysis of the deposited data

How the results depend on the processing

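The lists hold 1 library per genotype, so agreement between settings is not replication. No paired analysis was possible because each genotype has 1 library. On 3R the ratio of peak numbers, 1.37 as deposited, was 1.25 with peaks within 500 bp joined, 1.01 with peaks of at least 40 bp and 1.05 with the longest peaks of each list in equal numbers. Relative to the other arms it was 1.15, and 1.05 with at least 40 bp, 1.07 with equal numbers, 1.11 with at least 30 bp, 1.05 with at least 60 bp and 1.001 with at least 100 bp. The rho of the ratio with position, 0.0038, was -0.075 with peaks joined, -0.14 with at least 40 bp and -0.36 with equal numbers. The shared percentage of *scrib1*+*ab* peaks, 55.8, was 20.4 with a reciprocal overlap of 50%, 74.2 with a gap of up to 500 bp, 67.0 with at least 40 bp, 64.9 with equal numbers and 65.4 with the *scrib1*+*ab* list of each whole arm, 3R below 2 Mb included, held to its first peaks in the number of the *ab* list. That of *ab* peaks, 62.5, was 27.8, 80.7, 57.2, 57.5 and 56.4 under the same settings in that order, and 69.7 with peaks joined; with at least 40 bp, equal numbers and first-listed peaks the *scrib1*+*ab* share was the higher one. The length ratio, 0.414, was 0.530 with at least 40 bp and 0.507 in mutually best pairs. The unshared ratio relative to the other arms, 1.39, was 1.53 with a gap of up to 500 bp, 1.20 with reciprocal overlap, 1.11 with at least 40 bp, 1.15 with equal numbers and 1.02 with first-listed peaks, a setting that makes the numbers of both lists equal on every arm and so removes most of the difference between arms by construction. The rho of *scrib1*+*ab* length with position, -0.48, was -0.28 in bins of 500 kb and -0.39 with at least 40 bp. The settings for the unshared ratio and for length with position, the first-listed setting and the limits of 30, 60 and 100 bp were chosen after seeing the data. The cause of the other shifts was not tested.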

Other observations

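The part of 3R below 2 Mb, which is outside the arm as described, held 161 *scrib1*+*ab* and 121 *ab* peaks, a ratio of 1.33 (exact 95% interval 1.04 to 1.70, counting error only). The peak nearest to the tip of 3R was 3R:27893906-27894037 (132 bp) in *scrib1*+*ab* discs and 3R:27894193-27894230 (38 bp) in *ab* discs.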
